A study of Arabidopsis thaliana with 21 samples.

Results

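Xyloglucan endotransglucosylase/hydrolases (XTH) are secreted enzymes that cut the cell wall polysaccharide xyloglucan and rejoin the cut end to another xyloglucan chain, or to water. Xyloglucan coats and tethers cellulose, so these enzymes are studied as agents of wall loosening and wall assembly in growing cells, and auxin is a hormone known to alter root cell elongation. The 10 XTH genes described here were chosen by locus, as XTH4 (AT2G06850), XTH5 (AT5G13870), XTH12 (AT5G57530), XTH13 (AT5G57540), XTH14 (AT4G25820), XTH17 (AT1G65310), XTH18 (AT4G30280), XTH19 (AT4G30290), XTH20 (AT5G48070) and XTH22 (AT5G57560), the last also called TCH4 for its induction by touch. They are 10 of the 33 XTH genes and of the 27586 loci in the files, and all 10 had enough reads to be tested among 19809 genes.

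Root tips of 5-day-old Arabidopsis thaliana were profiled by RNA sequencing in 7 groups of 3 libraries, each made from 50 tips of 1 to 2 mm. In the first experiment, wild-type Col-0 received the natural auxin IAA, indole-3-acetic acid, at 10 nM for 20 min, 10 µM of the auxin antagonist PEO-IAA for 20 min, or ethanol as mock for the same time. In the second, the line HS::AXR3-1 and Col-0 were held at 37 °C for 40 min and recovered for 80 min. In the third, the line XVE>>AXR3-1 and Col-0 received 5 µM estradiol for 2 h. AXR3-1 is a stabilised form of the auxin signalling repressor AXR3 (IAA17); the first line drives it from a heat shock promoter and the second from an estradiol-inducible system under the g1090 promoter, and both are in the Col-0 background. The second transgene carries a red fluorescent tag, named RFP in the sample labels and mCherry in the design text. The labels do not say how many independent insertions of either transgene were used, and wild-type AXR3 and AXR3-1 reads were not separated here.

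Library totals ran between 17.45 and 23.88 M estimated reads. AXR3 had 734, 939 and 1185 CPM (reads scaled to a common library size with TMM factors) in XVE>>AXR3-1 tips, against 175, 146 and 146 CPM in Col-0 after estradiol. It had 181, 298 and 861 CPM in HS::AXR3-1 tips, against 93.5, 149 and 143 CPM in Col-0 after heat. The library labelled HS::AXR3-1 replicate 1 went against its label in the heat markers: HSP18.2, a small heat shock protein gene, had 18.0 CPM there, against 1961 and 4824 CPM in the other libraries of that line and between 2464 and 3156 CPM in heated Col-0. Unheated libraries held at most 1.43 CPM. Results of the heat experiment are therefore given with and without that library. Of markers of the root tip, 7 root hair, 6 endodermis and 5 cell division genes were tested and detected in all groups, and the 3 green tissue genes summed to between 9.28 and 36.7 CPM.

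Several of the genes are close copies or neighbours, which bears on how reads were divided among them. On chromosome 5, XTH12, XTH13, XTH25 and XTH22 lie close together on the minus strand, with 1097 bases and 1 other protein-coding gene between XTH12 and XTH13. XTH18 and XTH19 are neighbours on chromosome 4, 1500 bases apart, and XTH14 lies 363 bases from XTH23 on the same chromosome. The coding sequences of XTH17, on chromosome 1, and XTH18 are 92.2% identical, those of XTH18 and XTH19 87.6%, and those of XTH12 and XTH13 89.4%. Of the 31-base words in its transcripts, XTH17 shares 11.1% with other loci, XTH18 8.27%, XTH19 5.29%, and XTH12 and XTH13 2.33% and 2.41%. Levels of these 5 genes, and of XTH20 with 2.33%, are uncertain to the extent that shared reads were divided by estimation. XTH5, XTH14 and XTH22 share no such word.

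The 250 bases before the annotated start of XTH17 and XTH18 are shown because these genes, on different chromosomes, hold nearly the same sequence next to the start. Capitals mark the bases that are identical in the best local alignment of the pair, 84 of 86 aligned positions, with a longest identical run of 73 bases that ends at the start. The sequences are from the RefSeq assembly TAIR10.1, at chr1:24256804-24257053 on the plus strand for XTH17 and chr4:14827212-14827461 on the minus strand for XTH18.
XTH17: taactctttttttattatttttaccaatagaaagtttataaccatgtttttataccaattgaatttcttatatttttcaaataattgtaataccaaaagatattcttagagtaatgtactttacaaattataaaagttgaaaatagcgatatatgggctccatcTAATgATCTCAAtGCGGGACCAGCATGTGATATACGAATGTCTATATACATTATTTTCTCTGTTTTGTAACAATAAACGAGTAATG
XTH18: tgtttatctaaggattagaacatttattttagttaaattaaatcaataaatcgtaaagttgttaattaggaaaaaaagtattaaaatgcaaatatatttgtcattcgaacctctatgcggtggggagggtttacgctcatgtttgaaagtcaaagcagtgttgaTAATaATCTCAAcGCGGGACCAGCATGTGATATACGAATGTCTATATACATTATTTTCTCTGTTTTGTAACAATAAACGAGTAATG

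The same window of XTH19, the neighbour of XTH18, is shown for contrast, at chr4:14830225-14830474 on the minus strand of TAIR10.1. Its best local alignment with the XTH18 window covers 20 positions, 18 of them identical.
XTH19: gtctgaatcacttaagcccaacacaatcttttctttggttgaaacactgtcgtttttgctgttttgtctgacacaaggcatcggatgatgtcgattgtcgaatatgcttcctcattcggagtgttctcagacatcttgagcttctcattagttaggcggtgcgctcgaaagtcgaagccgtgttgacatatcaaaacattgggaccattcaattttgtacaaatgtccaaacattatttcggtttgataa

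XTH13 and XTH14, whose levels correlated at 0.93 over the 21 libraries, share a stretch of 39 aligned positions with 34 identical, again in capitals. It lies 95 to 57 bases before the start of XTH13 and 68 to 30 bases before that of XTH14. The windows are at chr5:23304096-23304345 on the minus strand and chr4:13130041-13130290 on the plus strand of TAIR10.1. XTH12 correlated at 0.97 with XTH13 and at 0.95 with XTH14. The best local alignment of its window covers 20 positions with XTH13, 19 of them identical, and 22 with XTH14, 18 of them identical. Whether these stretches bear on the levels was not tested.
XTH13: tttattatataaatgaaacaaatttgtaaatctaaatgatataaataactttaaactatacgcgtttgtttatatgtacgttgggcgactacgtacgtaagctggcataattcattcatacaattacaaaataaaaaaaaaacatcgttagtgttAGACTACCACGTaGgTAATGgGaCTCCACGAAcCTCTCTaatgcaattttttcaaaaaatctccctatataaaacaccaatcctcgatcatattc
XTH14: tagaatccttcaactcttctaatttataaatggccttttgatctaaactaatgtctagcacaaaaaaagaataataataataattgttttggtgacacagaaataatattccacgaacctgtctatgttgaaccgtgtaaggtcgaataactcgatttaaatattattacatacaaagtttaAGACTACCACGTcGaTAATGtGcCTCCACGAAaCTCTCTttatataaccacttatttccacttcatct

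Motifs were searched on both strands of these windows for all 10 genes, and for 27443 promoter windows of the same length. CGCGTT, a core of elements bound by calmodulin-regulated factors in stress responses, occurs in the windows of XTH13, XTH18 and XTH20, and in 2.59% of all windows. The auxin response element TGTCTC is in none of the 10 and in 10.9% of all, and its variant TGTCGG is in XTH20 and in 4.16% of all. The G-box CACGTG is in none of the 10 and in 6.49% of all windows. The heat shock element GAANNTTC is in none of the 10 and in 9.55% of all, and CGTGTG is in none and in 5.37%. A root hair-specific element known by that name is in 0.754% of all windows and in none of the 10. No statement on any factor follows from these matches.

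Ordered by TPM, which is per length, XTH18 was the highest of the 10, with a mean of 158 TPM over the 21 libraries and a range of 68.5 to 315 TPM. XTH4, XTH14, XTH19 and XTH17 followed within a narrow span, at means of 112, 109, 109 and 108 TPM. XTH5 averaged 38.6 TPM and XTH12 23.2 TPM, and XTH13, XTH22 and XTH20 were lowest at 12.6, 9.63 and 6.03 TPM. The 10 genes summed to a mean of 1020 ± 170 TPM in IAA-treated tips, 728 ± 87.0 TPM in PEO-IAA-treated tips and 724 ± 228 TPM in mock tips (SD, n = 3 each). The sum was 504 ± 101 TPM in XVE>>AXR3-1 tips and 620 ± 69.5 TPM in Col-0 after estradiol, and 546 ± 74.8 TPM in HS::AXR3-1 tips and 658 ± 216 TPM in heated Col-0. The gene with the highest mean was XTH18 in IAA, PEO-IAA, mock and XVE>>AXR3-1 tips, XTH4 in HS::AXR3-1 tips and in Col-0 after estradiol, and XTH19 in heated Col-0. Without the library labelled HS::AXR3-1 replicate 1, XTH17 was highest in that line, at 109 TPM, with XTH4 at 107 TPM.

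**Figure D1:**
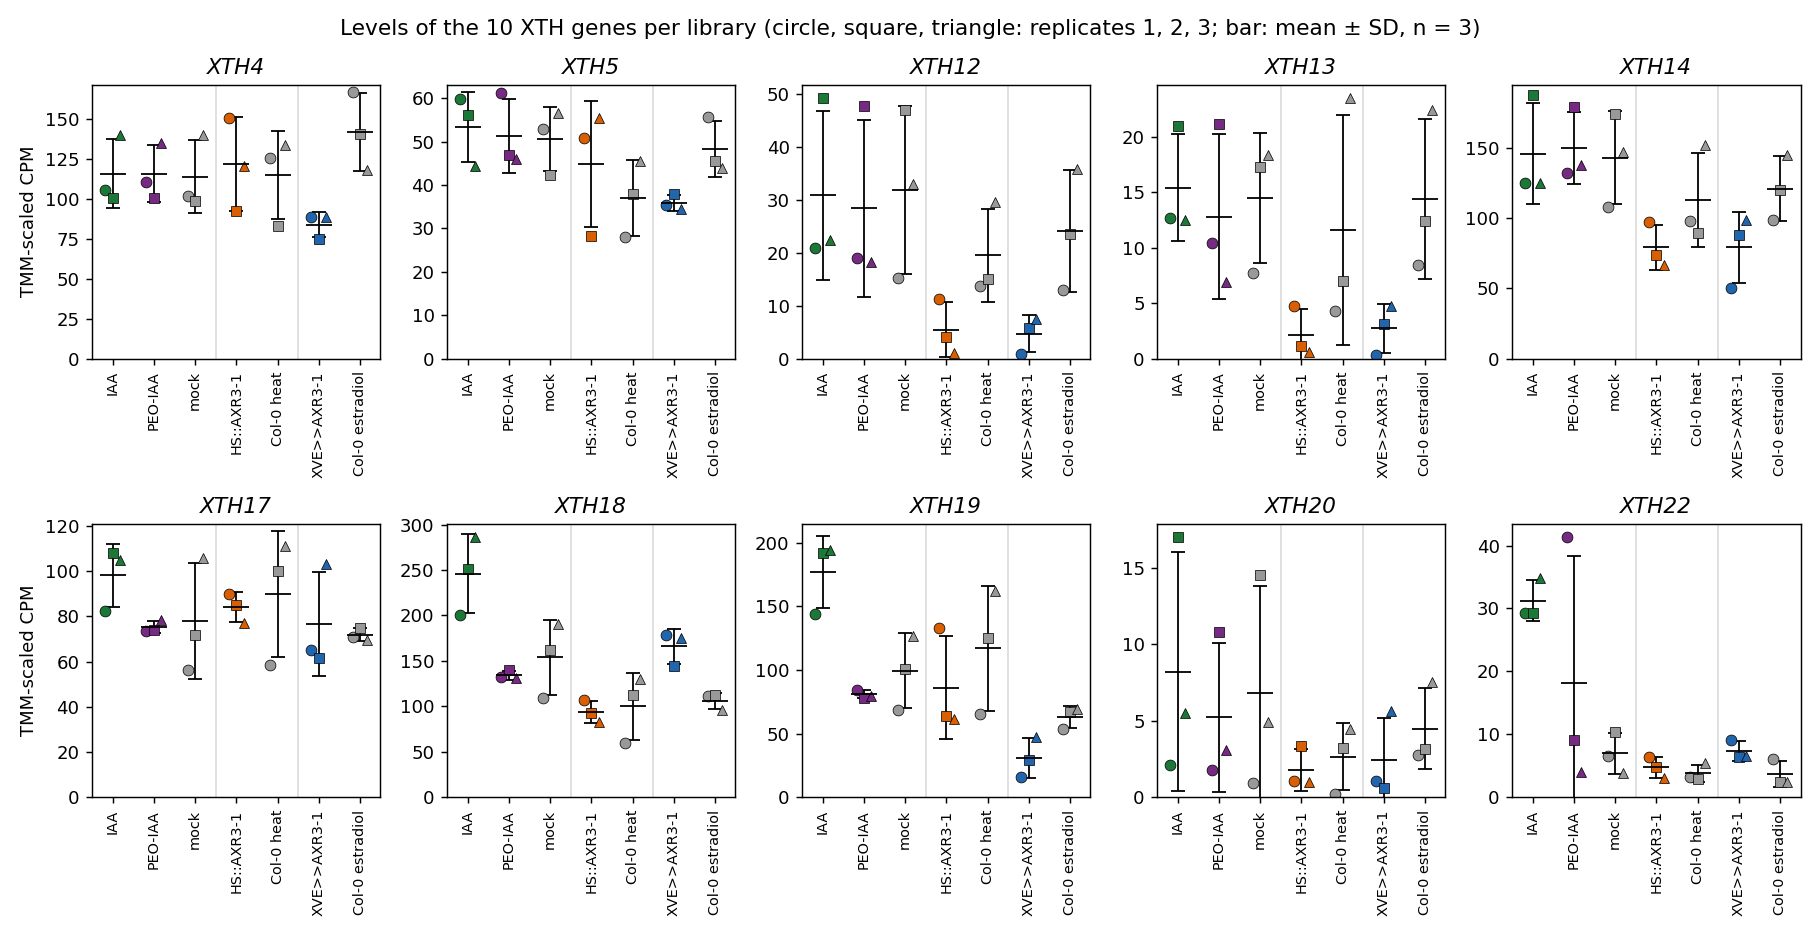
TMM-scaled CPM (y axis, from 0) of each of the 10 genes in the 7 groups (x axis); symbols are the libraries of replicates 1 to 3, and bars are the mean ± SD. XTH18, XTH19 and XTH22 lie highest in the IAA libraries by group mean, and XTH12 averages 5.48 CPM in HS::AXR3-1 tips and 4.68 CPM in XVE>>AXR3-1 tips, below the other 5 groups.

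None of the 10 genes passed the test in any of the 9 comparisons. The test was edgeR's quasi-likelihood test with Benjamini-Hochberg adjustment over all 19809 genes, with calls made under an adjusted p of 0.05. The number of the 10 genes with an unadjusted p under 0.05 was 3 for IAA against mock, 1 for PEO-IAA against mock, 2 for IAA against PEO-IAA, 2 for HS::AXR3-1 against heated Col-0 and 6 for XVE>>AXR3-1 against Col-0 after estradiol. Over all genes those shares were 3.39%, 1.54%, 4.49%, 4.23% and 10.3%. It was 3 for the difference between the effects of the lines (3.58% of all genes) and 1 each for heated against mock Col-0 (22.6%), heated against estradiol Col-0 (16.1%) and estradiol against mock Col-0 (7.99%). DESeq2 called 1 member in each of 3 comparisons, named where they are described, and none in the other 6.

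**Figure D2:**
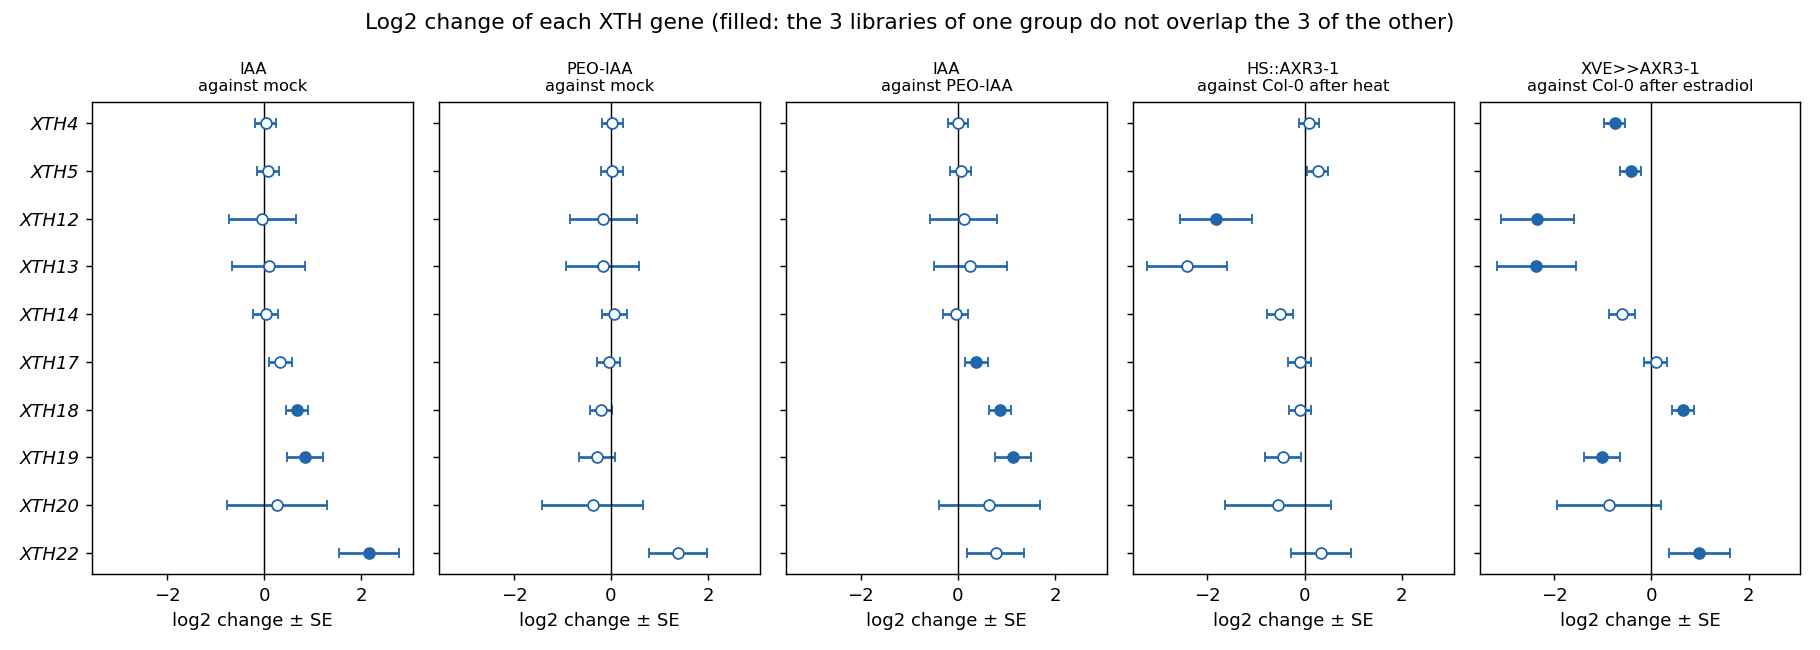
Log2 change with its SE (x axis) of each gene (y axis) in the 5 comparisons within an experiment; filled points mark genes whose 3 libraries of one group do not overlap the 3 of the other. IAA against mock has 3 filled points, all above 0, and XVE>>AXR3-1 against Col-0 has 7, of which 5 are below 0.

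IAA against mock asked which genes differ 20 min after auxin is added. XTH22, XTH18 and XTH19 were each higher in all 3 IAA libraries than in all 3 mock libraries. Of all tested genes, 4.28% were higher without overlap in this way. No member was called, and 0.167% of all tested genes were. The median log2 change of the 10 genes was 0.18, against -0.004 over all tested genes, with 9 of 10 above 0. IAA1, an early auxin-responsive repressor gene, rose 3.45-fold in the same comparison (edgeR adjusted p = 0.0155).

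XTH22 had 29.3, 29.3 and 34.9 CPM in IAA-treated tips, against 6.58, 10.4 and 3.90 CPM in mock tips. The lowest IAA library was above the highest mock library. The log2 change was 2.16 (SE 0.61), or 4.46-fold, with an edgeR adjusted p of 0.353; DESeq2, which called 0.558% of its tested genes here, gave an adjusted p of 0.0343.

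XTH18, a gene of elongating and differentiating root cells, had 200, 251 and 286 CPM in IAA-treated tips, against 109, 162 and 191 CPM in mock tips. The groups were separated by a narrow margin, and its log2 change was 0.67 (SE 0.23, edgeR adjusted p = 0.709). XTH19 had 144, 192 and 194 CPM in IAA-treated tips, against 68.6, 101 and 127 CPM in mock tips. Its log2 change was 0.84 (SE 0.37, edgeR adjusted p = 1). XTH17 overlapped between the groups, with 82.2, 108 and 105 CPM in IAA-treated tips and 56.3, 71.7 and 106 CPM in mock tips. XTH17 made up less of the pair it forms with XTH18 under IAA: the ratio of XTH17 to XTH18 TPM was 0.489, 0.507 and 0.436 in IAA-treated tips, against 0.607, 0.527 and 0.671 in mock tips (exact two-sided permutation p = 0.1, the smallest that 3 against 3 allows). For the other 6 genes, XTH4, XTH5, XTH12, XTH13, XTH14 and XTH20, log2 changes lay between -0.04 and 0.27 and all groups overlapped.

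PEO-IAA against mock gave no member whose libraries did not overlap, against 5.05% of all tested genes in either direction. No member was called, and 0.0353% of all tested genes were. XTH18 was at 132, 140 and 131 CPM in PEO-IAA-treated tips and XTH19 at 84.4, 78.3 and 79.7 CPM, a narrower span than that of the mock libraries given above. XTH22 had 41.3, 9.11 and 4.01 CPM in PEO-IAA-treated tips, and replicate 1 alone lay above the mock libraries. Its log2 change of 1.38 (SE 0.60, edgeR adjusted p = 1) became -0.09 without PEO-IAA replicate 1.

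The doses of IAA and PEO-IAA differed, so compound and dose cannot be told apart between them. XTH18 was higher in IAA-treated tips by a log2 change of 0.87 (SE 0.23, edgeR adjusted p = 0.14; DESeq2 adjusted p = 0.0222, with 1.15% of genes called by DESeq2). XTH19 was higher by 1.13 (SE 0.37, edgeR adjusted p = 0.37), and XTH17 by 0.38 (SE 0.24). These 3 genes did not overlap between IAA-treated and PEO-IAA-treated tips, as was so for 4.82% of all tested genes in that direction. Here 0.631% of all tested genes were called, and no member. The comparison shares its IAA libraries with the one against mock, so the values do not count as separate observations.

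Genes of touch and wounding are given beside XTH22. The summed level of 11 such genes, among them the calmodulin-like TCH2 and TCH3, was 757, 613 and 863 CPM in IAA-treated tips, 662, 360 and 286 CPM in PEO-IAA-treated tips and 304, 367 and 265 CPM in mock tips. The IAA libraries and PEO-IAA replicate 1, the libraries with the 4 highest XTH22 levels, also held the 4 highest of these sums within this experiment. TCH3, a calcium-binding protein gene, had 293, 266 and 297 CPM in IAA-treated tips, against 39.4, 88.3 and 37.5 CPM in mock tips. For IAA against mock, 8 of the 11 were higher without overlap, against 4.28% of all tested genes. None was called by edgeR, DESeq2 called 1 and edgeR with the replicate block called 1. Over all tested genes, DESeq2 called 0.558% and the block 0.671%. The part of these genes' shared levels in the XTH22 values was not tested.

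XVE>>AXR3-1 against Col-0 after estradiol asked how the line differs from wild type after 2 h of the inducer. None of the 7 groups holds either line without its inducer. Standing differences between line and wild type therefore cannot be told apart from changes that follow induction. XTH4, XTH5, XTH12, XTH13 and XTH19 were lower in all 3 libraries of the line than in all 3 of Col-0, and XTH18 and XTH22 were higher in all 3. Of all tested genes 6.67% were lower and 8.2% higher without overlap. No member was called, against 2.81% of all tested genes. The median log2 change was -0.69, against -0.015 over all tested genes.

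The replicate numbers pair the libraries of this experiment, as the correlations in the methods show, and a fit with the number as a block called 3 members lower: XTH4, XTH12 and XTH14. That fit called 7.52% of all tested genes, 3.34% in the lower direction. No member was called in any fit that left out 1 library.

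XTH4 had 88.5, 74.7 and 88.7 CPM in XVE>>AXR3-1 tips, against 167, 141 and 118 CPM in Col-0. The highest library of the line was below the lowest of Col-0. Its log2 change was -0.76 (SE 0.21), or 1.69-fold lower, with an edgeR adjusted p of 0.0713. The adjusted p was 0.0212 with DESeq2, which called 4.29% of its tested genes, and 0.000804 in edgeR with the replicate block. XTH5, the gene closest to XTH4 among the 10 with 71.9% identity in the coding sequence, had 35.4, 37.9 and 34.5 CPM in the line, against 55.8, 45.6 and 43.9 CPM in Col-0 (log2 change -0.43, SE 0.22, edgeR adjusted p = 0.568).

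XTH12 had 0.830, 5.68 and 7.54 CPM in XVE>>AXR3-1 tips, against 12.9, 23.5 and 35.9 CPM in Col-0. Levels were 5.08-fold lower in the line, a log2 change of -2.35 (SE 0.75) with an edgeR adjusted p of 0.135, or 0.0177 with the replicate block. In both groups replicate 1 was lowest and replicate 3 highest. XTH13 had 0.356, 3.14 and 4.73 CPM in the line, against 8.42, 12.4 and 22.4 CPM in Col-0. Its log2 change was -2.37 (SE 0.81, edgeR adjusted p = 0.172; 0.0506 with the block). The lowest library held 14 estimated reads of XTH12 and 6 of XTH13, so those levels carry a large counting error. XTH14, next most similar to both among the 10 with 76.6% and 77.2% identity in the coding sequence, had 50.5, 87.9 and 98.9 CPM in the line, against 98.8, 120 and 145 CPM in Col-0. The groups met at XVE>>AXR3-1 replicate 3 and Col-0 replicate 1, and the log2 change was -0.61 (SE 0.27, edgeR adjusted p = 0.389; 0.0412 with the block).

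Root hair markers were lower beside these 3 genes. The 7 markers summed to 81.1, 163 and 284 CPM in XVE>>AXR3-1 tips, against 338, 415 and 483 CPM in Col-0. By edgeR 5 of 7 fell: EXPA7, EXPA18, COBL9, RSL4 and RHD6. Of all tested genes, 1.34% were called lower. RSL4, a transcription factor that drives hair growth, averaged 3.53 ± 1.65 CPM in the line and 17.9 ± 2.35 CPM in Col-0 (SD, n = 3 each; edgeR adjusted p = 0.00338). In these bulk samples fewer hair cells and less RNA per hair cell cannot be told apart, and their part in the levels of XTH12, XTH13 and XTH14 was not tested.

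**Figure D3:**
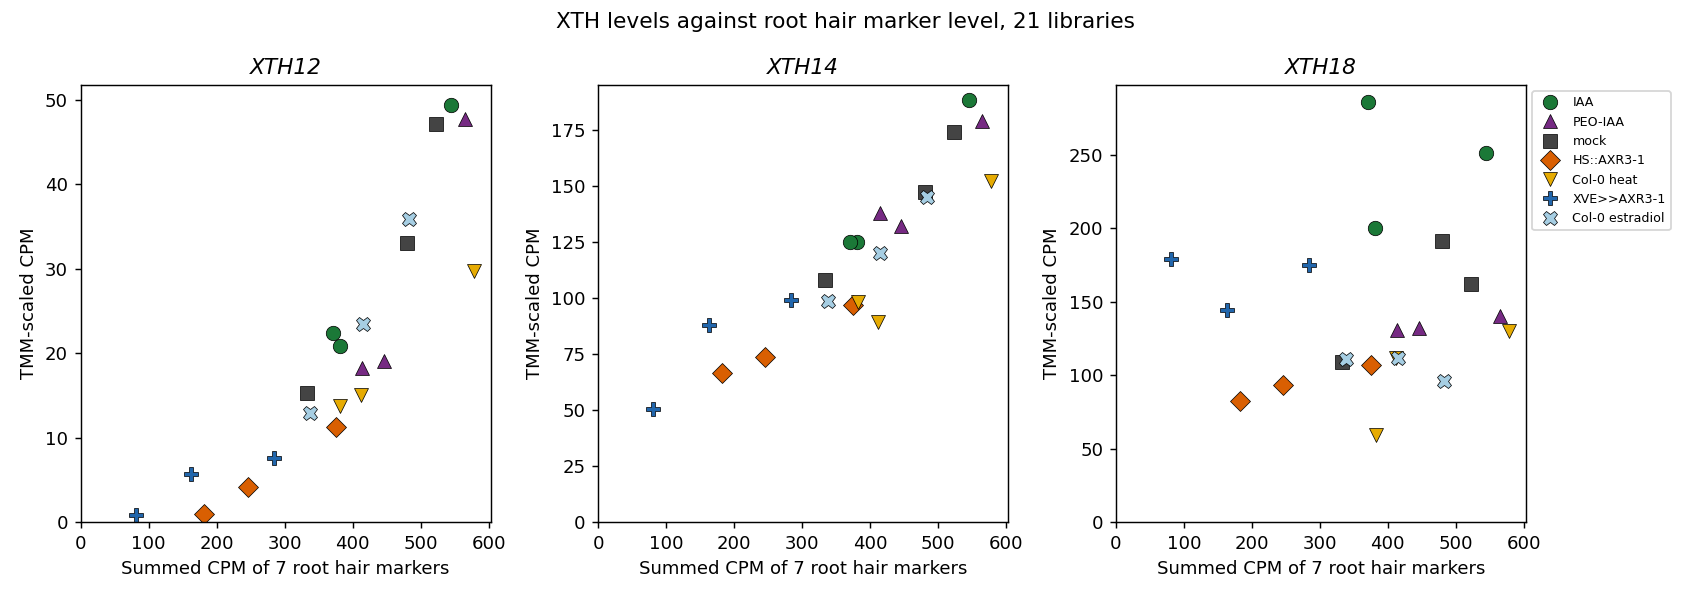
TMM-scaled CPM of XTH12, XTH14 and XTH18 (y axes) against the summed CPM of 7 root hair markers (x axis) in the 21 libraries, by group. XTH12 and XTH14 are low where the markers are low, with XVE>>AXR3-1 replicate 1 at 81.1 CPM of markers and 0.830 CPM of XTH12, while XTH18 is above 140 CPM in all 3 XVE>>AXR3-1 libraries.

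XTH18 and XTH19, neighbours in the genome, differed in direction in the line. XTH18 had 179, 144 and 175 CPM in XVE>>AXR3-1 tips, against 111, 112 and 96.0 CPM in Col-0 (log2 change 0.65, SE 0.23, edgeR adjusted p = 0.209). Fitting the estradiol libraries alone gave an edgeR adjusted p of 0.0486 for XTH18, and the replicate block gave 0.114. The share of all genes called by the fit of that experiment alone is not given here. XTH19 had 16.2, 29.5 and 47.3 CPM in the line, against 53.5, 66.9 and 69.3 CPM in Col-0 (log2 change -1.02, SE 0.37, edgeR adjusted p = 0.221). The ratio of XTH18 to XTH19 TPM was 11.1, 4.70 and 3.51 in XVE>>AXR3-1 tips, against 2.10, 1.58 and 1.31 in Col-0. Every library of the line was above every Col-0 library, and the exact two-sided permutation p was 0.1, the smallest that 3 against 3 allows. That test took the libraries as unpaired, while the replicate numbers pair them in this experiment. XTH17, which shares the start-proximal sequence with XTH18, had 64.9, 61.4 and 103 CPM in the line and 71.0, 74.9 and 69.7 CPM in Col-0, which overlapped (log2 change 0.09, SE 0.24). The ratio of XTH17 to XTH18 TPM was 0.433, 0.514 and 0.703 in the line, against 0.764, 0.793 and 0.857 in Col-0 (exact permutation p = 0.1).

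**Figure D4:**
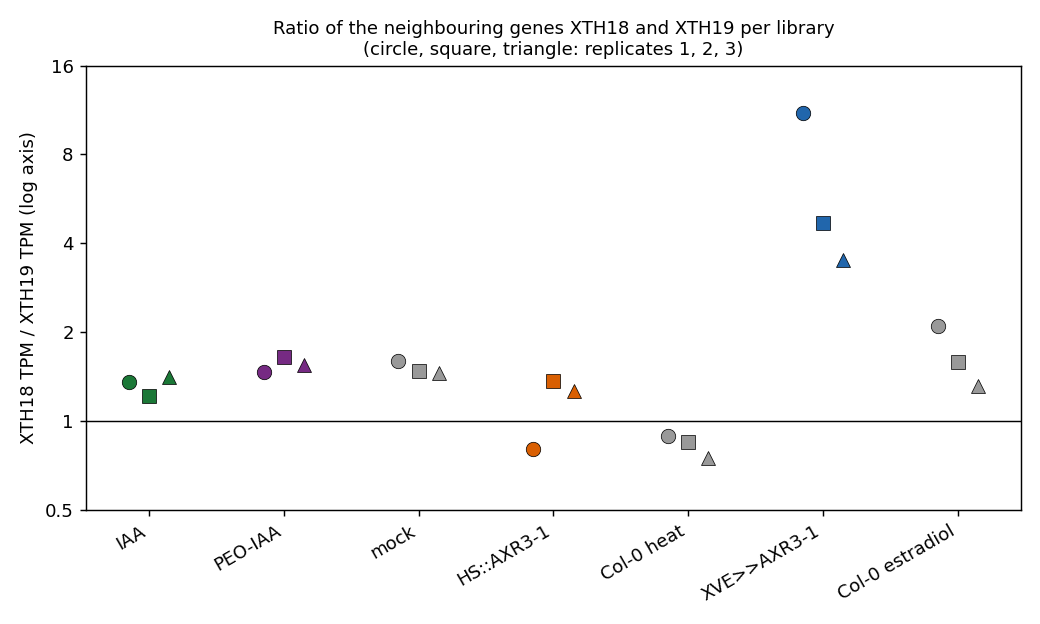
Ratio of XTH18 TPM to XTH19 TPM per library (y axis, log scale) in the 7 groups (x axis); symbols are replicates 1 to 3 and the line marks a ratio of 1. The 3 XVE>>AXR3-1 libraries, at 3.51 to 11.1, lie above all others, and heated Col-0 lies between 0.746 and 0.891.

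XTH22 had 9.12, 6.32 and 6.53 CPM in XVE>>AXR3-1 tips, against 6.14, 2.44 and 2.5 CPM in Col-0, a log2 change of 0.99 (SE 0.62, edgeR adjusted p = 0.806). The 11 touch genes summed to 274, 240 and 228 CPM in the line, against 140, 95.3 and 106 CPM in Col-0. Of these, 9 of 11 were higher without overlap, against 8.2% of all tested genes. The transcription factor gene WRKY33 alone among them passed the test (2.77-fold higher, edgeR adjusted p = 0.00596). Of all tested genes, 1.46% were called higher. XTH20, known from vascular tissue, had 1.07, 0.597 and 5.61 CPM in the line and 2.77, 3.14 and 7.54 CPM in Col-0 (log2 change -0.87, SE 1.07). Its groups overlapped.

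HS::AXR3-1 against Col-0 after heat asked the same of the heat-induced line, with the same limit. No member was called, against 0.0252% of all tested genes, and XTH12 alone had libraries that did not overlap, in the lower direction, as was so for 2.9% of all tested genes. XTH12 had 11.3, 4.16 and 1.02 CPM in HS::AXR3-1 tips, against 13.7, 15 and 29.7 CPM in heated Col-0 (log2 change -1.82, SE 0.74, edgeR adjusted p = 1). XTH13 had 4.77, 1.09 and 0.558 CPM in the line, against 4.25, 7.01 and 23.5 CPM in Col-0 (log2 change -2.42, SE 0.82, edgeR adjusted p = 0.868). Without Col-0 heat replicate 3 that change was -1.39, with an edgeR adjusted p of 1.

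Without the library labelled HS::AXR3-1 replicate 1, no member was called either, against 0.1% of all tested genes. XTH12, XTH13, XTH14 and XTH19 were then lower without overlap, a pattern met by 7% of all tested genes when 2 libraries face 3. The log2 change of XTH12 was -2.91 (SE 0.83, edgeR adjusted p = 0.326) and that of XTH13 -3.80 (SE 0.95, edgeR adjusted p = 0.206). XTH14 had 73.8 and 66.7 CPM in the remaining libraries of the line, against 98.2, 89.4 and 152 CPM in heated Col-0 (log2 change -0.69, SE 0.29). XTH19 had 64.1 and 61.1 CPM there, against 65.0, 125 and 162 CPM in heated Col-0; the log2 change was -0.91 (SE 0.37), against -0.45 with all 3 libraries. Root hair markers summed to 375, 246 and 182 CPM in the line, the library labelled replicate 1 being the highest, and to 382, 412 and 578 CPM in heated Col-0. Their part in the XTH levels was not tested.

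XTH18 overlapped between the groups of the heat experiment, at 107, 93.0 and 82.6 CPM in HS::AXR3-1 tips and 59.6, 112 and 130 CPM in heated Col-0. The effect in HS::AXR3-1 minus that in XVE>>AXR3-1 was -0.74 (SE 0.33) for XTH18, 0.85 (SE 0.30) for XTH4 and 0.58 (SE 0.52) for XTH19, with an edgeR adjusted p of 1 for each. Without the library labelled HS::AXR3-1 replicate 1 these were -0.85 (SE 0.35), 0.65 (SE 0.30) and 0.11 (SE 0.49), each with an edgeR adjusted p of 1. The heat-line effect on XTH4 alone was 0.09 with that library and -0.10 without it. XTH4 had 151, 92.6 and 121 CPM in HS::AXR3-1 tips and 126, 83 and 134 CPM in heated Col-0. With all libraries, the unadjusted edgeR p of the difference was 0.0117 for XTH4, 0.0361 for XTH5, 0.0363 for XTH18 and 0.282 for XTH19. For XTH5 the difference was 0.71 (SE 0.31). No member passed this test of the difference, against 0.0252% of all tested genes. With the replicate block, which called 0.257% of all tested genes, XTH4 did (0.84, edgeR adjusted p = 0.0383). The replicate numbers do not pair all of the heat libraries, however. Inducer, promoter and time also differ between the lines. The ratio of XTH18 to XTH19 TPM was 0.8, 1.36 and 1.27 in HS::AXR3-1 tips, against 0.891, 0.853 and 0.746 in heated Col-0; the libraries overlapped through the one labelled HS::AXR3-1 replicate 1 (exact permutation p = 0.3).

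The 3 Col-0 control groups come from different experiments, so treatment and experiment cannot be told apart among them. No member was called in any of the 3 comparisons, while 7.6% of all tested genes were called for heated against mock Col-0, 1.54% for heated against estradiol Col-0 and 1% for estradiol against mock Col-0. Nor did any member's groups lie apart, against 27.9%, 23% and 14% of all tested genes in those comparisons, in the same order. XTH18 averaged 100 ± 36.5 CPM in heated Col-0 and 154 ± 41.5 CPM in mock Col-0 (SD, n = 3 each), a log2 change of -0.62 with an SE of 0.23 and an edgeR adjusted p of 0.118. It averaged 106 ± 8.80 CPM in Col-0 after estradiol. The ratio of XTH18 to XTH19 TPM was 0.830 ± 0.0752 in heated Col-0, 1.66 ± 0.401 in Col-0 after estradiol and 1.51 ± 0.0745 in mock Col-0.

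Ordered by group means of CPM, IAA-treated tips were highest for XTH5, XTH13, XTH17, XTH18, XTH19, XTH20 and XTH22, mock tips for XTH12, PEO-IAA-treated tips for XTH14 and Col-0 after estradiol for XTH4. XVE>>AXR3-1 tips were lowest for XTH4, XTH5, XTH12 and XTH19, HS::AXR3-1 tips for XTH13, XTH14, XTH18 and XTH20, and Col-0 after estradiol for XTH17 and XTH22. The highest group mean exceeded the lowest 8.44-fold for XTH22, 7.19-fold for XTH13, 6.80-fold for XTH12 and 5.70-fold for XTH19. It did so 1.36-fold for XTH17 and 1.49-fold for XTH5. Without the library labelled HS::AXR3-1 replicate 1, HS::AXR3-1 tips were lowest for XTH12 too, at a mean of 2.59 CPM, and the span grew to 12.3-fold for XTH12 and 18.7-fold for XTH13; the lowest group of the other 9 genes stayed as given. Few neighbours in these orders were separated on CPM: mock and XVE>>AXR3-1 for XTH4, heated Col-0 and HS::AXR3-1 for XTH12, IAA and XVE>>AXR3-1 as well as PEO-IAA and Col-0 after estradiol for XTH18. For XTH19, Col-0 after estradiol was separated from both of its neighbours, PEO-IAA above and XVE>>AXR3-1 below. On TPM no neighbours were separated for XTH4 or XTH19, and XVE>>AXR3-1 was separated from HS::AXR3-1 for XTH22. On CPM, neighbours overlapped for the remaining 6 genes, XTH5, XTH13, XTH14, XTH17, XTH20 and XTH22.

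Replicates of the chemical experiment carried a shared pattern. XTH12 had 49.3 CPM in IAA, 47.7 CPM in PEO-IAA and 47.1 CPM in mock tips in the libraries of replicate 2, while the remaining 6 libraries ran between 15.3 and 33.0 CPM. XTH20 behaved alike, at 17, 10.8 and 14.5 CPM in the replicate 2 libraries of IAA, PEO-IAA and mock tips. Its other libraries there did not exceed 5.51 CPM, and those of replicate 1 were lowest in each group, at 2.09, 1.78 and 0.92 CPM. The 6 xylem markers summed to 123, 116 and 112 CPM in the replicate 1 libraries of IAA, PEO-IAA and mock tips and to between 276 and 346 CPM in the other 6. The root hair markers summed to 545, 565 and 523 CPM in the replicate 2 libraries of IAA, PEO-IAA and mock tips. Their sums in the other 6 libraries ran between 333 and 480 CPM. The spread of XTH12 and XTH20 within groups was therefore wide, and what set these libraries apart was not tested.

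The genes varied together in sets across the 21 libraries, which share the 3 experiments and their depth. The library labelled HS::AXR3-1 replicate 1 is among them, and it was the highest of its group for XTH12, XTH13, XTH14 and XTH19. Its part in these correlations, and in the likeness to other genes given below, was not tested. Pearson's r of log2 CPM was 0.97 between XTH12 and XTH13, 0.95 between XTH12 and XTH14 and 0.93 between XTH13 and XTH14, and 0.94, 0.91 and 0.91 for deviations from the group means. XTH17 and XTH18 correlated at 0.50 over libraries and at 0.85 for the deviations, and XTH17 and XTH19 at 0.66 and 0.81. XTH18 and XTH22 correlated at 0.70, but at 0.14 for the deviations. The part of reads shared between close copies in these values was not tested; XTH14 and XTH22 share no 31-base word with other loci.

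**Figure D5:**
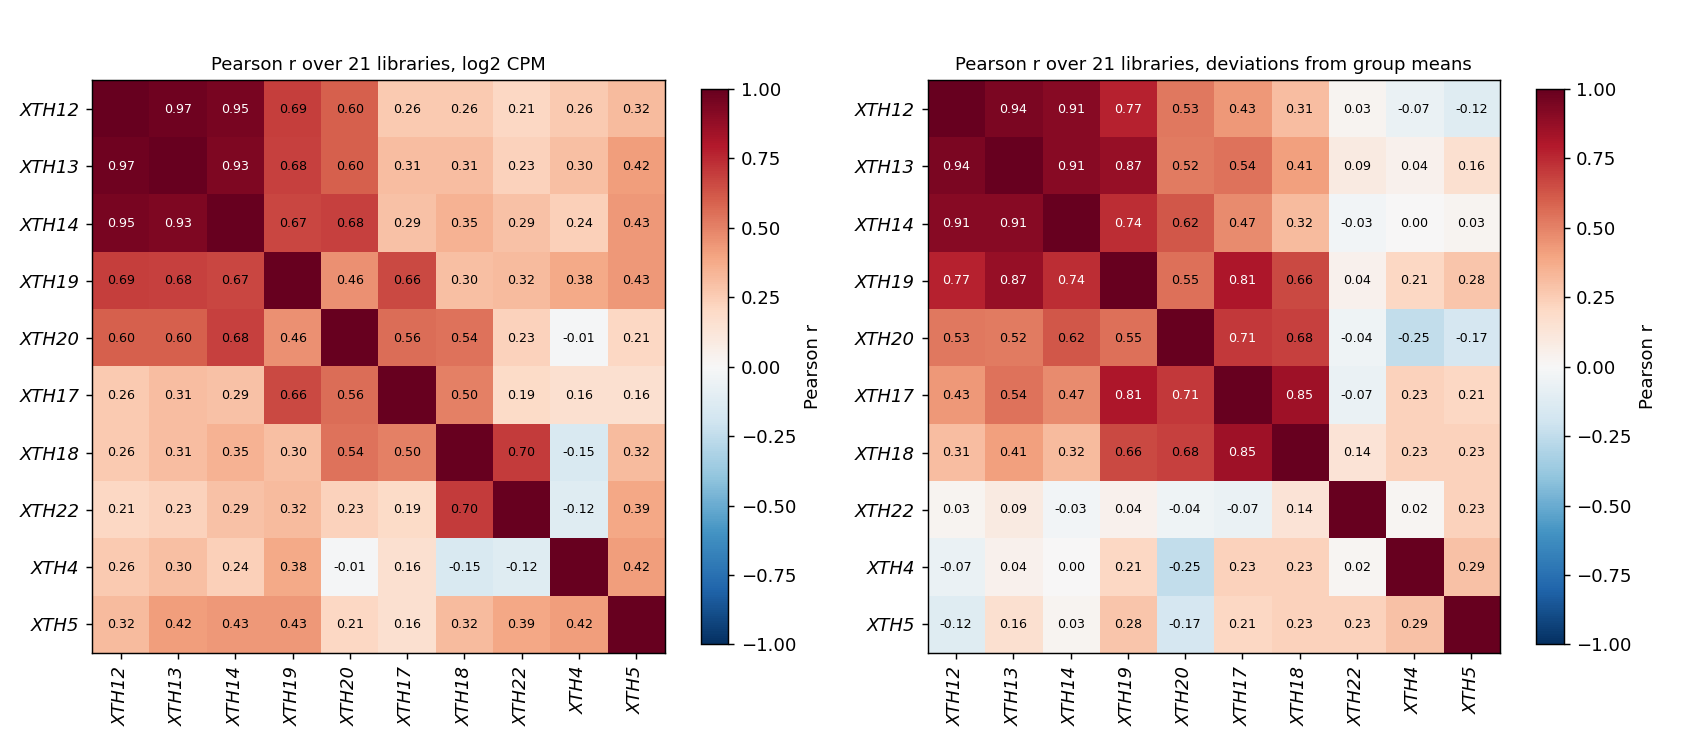
Pearson's r between each pair of the 10 genes over 21 libraries, from log2 CPM (left) and from deviations from group means (right), with colour running between -1 and 1. XTH12, XTH13 and XTH14 form a block of 0.91 to 0.97 in both panels, while the 0.70 between XTH18 and XTH22 drops to 0.14 in the right panel.

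Likeness to other genes was searched among 15179 tested genes with a mean of at least 5 CPM; the rule named only members called in a comparison, so the search was widened to all 10 after the values were seen. Nearest to XTH12 were EXT6 and EXT13, genes of extensins, which are structural wall glycoproteins, at r = 0.99 and 0.98, and EXT6 was nearest to XTH13 at 0.96. XTH14 was nearest to AT3G49960 at 0.98 and to PRP3, a proline-rich wall protein gene of root hairs, at 0.95. For deviations from the group means, XTH12 had 0.98 with EXT6 and with EXT13, and XTH13 had 0.93 with EXT6. XTH14 then had 0.94 with AT3G49960 and 0.89 with PRP3. The median r of levels to the 7 root hair markers was 0.86 for XTH12, 0.84 for XTH13, 0.81 for XTH14, 0.73 for XTH19 and -0.05 for XTH18. The other members lay between 0.01 for XTH22 and 0.48 for XTH20.

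XTH22 was nearest to CZF1, a zinc finger protein gene, at 0.92 (0.77 for deviations from the group means). It reached 0.91 each with AT4G27280 and BAP1 (0.84 and 0.89 for the deviations). The median r of XTH22 to 9 touch and wounding genes other than TCH2 and TCH3 was 0.78, and that of XTH18 was 0.71. For the other members it ran between -0.21 for XTH4 and 0.40 for XTH5. These medians are of levels and not of deviations. XTH18 was nearest to AT1G31130 at 0.92 (0.81 for the deviations) and NUDT7 at 0.91 (0.62). XTH19 was nearest to APL1, for a large subunit of ADP-glucose pyrophosphorylase, at 0.90 (0.68 for the deviations). XTH20 was nearest to HA3, a plasma membrane proton pump gene, at 0.90 (also 0.90 for the deviations). For XTH17, XTH5 and XTH4 the highest values were 0.77 with GGH2, 0.80 with AT5G15260 and 0.75 with CYCP4;1.

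Of the other 23 XTH genes, 16 were tested, and edgeR called none in a comparison within an experiment; their median log2 changes lay between -0.06 and 0.12. In XVE>>AXR3-1 tips the replicate block called 4 of them, chosen for mention after their values were seen: XTH16 and XTH23 higher, and XTH8 and XTH33 lower. The block called 7.52% of all tested genes there, and DESeq2 4.29% of its tested genes. DESeq2 called 3 of these 4, XTH23 higher and XTH8 and XTH33 lower, and none of the list in the other comparisons within an experiment. XTH23, the neighbour of XTH14, had 24.2, 18.0 and 28.2 CPM in the line, against 10.0, 4.12 and 10.3 CPM in Col-0 (log2 change 1.53, SE 0.45, edgeR adjusted p = 0.0871; 0.00552 with the block). XTH25, which lies between XTH13 and XTH22, was at 0 CPM in 20 of the 21 libraries.

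Of 16 synthesis genes, all tested, 1 fell in XVE>>AXR3-1 tips: XUT1, which adds galacturonic acid to xyloglucan of root hairs, averaged 9.99 ± 1.22 CPM in the line and 17 ± 2.05 CPM in Col-0 (SD, n = 3 each), without overlap. Its log2 change was -0.77 (SE 0.15, edgeR adjusted p = 0.00617), and the list's median was -0.18. In that comparison 2.81% of all tested genes were called. EdgeR called no synthesis gene in the other comparisons within an experiment, and none of the 4 genes of enzymes that trim xyloglucan in any of them. With the replicate block, 4 synthesis genes passed in XVE>>AXR3-1 tips, 1 higher and 3 lower with XUT1 among them, and 1 trimming gene was higher. The block called 7.52% of all tested genes there. The block also called 1 synthesis gene lower for IAA against mock, 1 for IAA against PEO-IAA and 1 for HS::AXR3-1 against heated Col-0. It called 0.671%, 1.72% and 0.434% of all tested genes in these comparisons, in the same order. The numbers do not pair all libraries of the heat experiment.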

How the data were processed

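The deposited files, 1 per library, give per transcript an expected count, a TPM value and lengths, per the file headers. The authors made these expected counts and TPM with Salmon 1.3.0 and build TAIR10, per the submitters' processing notes. Strand and layout: not given in the sources used here. Expected counts were summed over 48268 transcripts to 27586 loci and rounded. The deposited TPM were summed per locus, to order genes and form ratios. The permutation tests of ratios took libraries as unpaired in all experiments and were not among the planned tests. The share of other gene pairs whose ratios separate is not given here.

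All 21 libraries entered 1 edgeR 4.0.16 quasi-likelihood fit (R 4.3.3; TMM scaling, default low-count filter, 14 residual degrees of freedom). Levels are TMM-scaled CPM; likeness used log2 CPM with a prior count of 2. The fit was run on simulated counts of the estradiol and mock groups, with large changes placed only in genes with many reads. That run does not bear on smaller changes or on genes with few reads. Alternatives were DESeq2 1.42.0, the replicate block, each experiment alone and single libraries left out, among others. Replicates are biological per the labels, and no pair agreed within sampling noise (chi-square per gene 20.9 to 129).

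Deviations of same-numbered libraries correlated at 0.52 to 0.78 in the chemical experiment and 0.49 to 0.70 in the estradiol experiment, above the 0.1 taken to pair libraries. Pairs 1, 2 and 3 of the heat experiment had 0.09, 0.45 and 0.28, and pair 1 holds the library labelled HS::AXR3-1 replicate 1. Libraries of unlike number reached at most 0.27, -0.03 and 0.23 in the chemical, estradiol and heat experiments. They thus also exceeded 0.1 in the chemical and heat experiments. The pairing comes from these data, since the labels do not say what a number shares.

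Sequences, gene positions and names are from the RefSeq annotation of TAIR10.1, found by locus; the deposited files hold no coordinates, and all 14 transcripts of the 10 genes, and 99.6% of matched transcripts, have the same length in both. The members and lists were chosen with earlier results of these data known. All 10 members are named; genes of other lists are named where called within an experiment, and exceptions are marked or stand as examples or marker checks.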

Additional observations from a re-analysis of the deposited data

How the results depend on the processing

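Of 23 log2 changes followed through 312 alternative values, 303 kept their direction and side of the threshold, 8 passed the threshold and 1 changed sign: XTH22 for PEO-IAA against mock, at -0.09 without PEO-IAA replicate 1 (range -0.09 to 1.85 over the fits without 1 library). The number of members called was 0 in each edgeR fit without 1 library and in the main edgeR fit of all libraries, which has no replicate block. DESeq2 called 1 member for IAA against mock (XTH22), 1 for IAA against PEO-IAA (XTH18) and 1 for XVE>>AXR3-1 against Col-0 (XTH4). Fitting the estradiol experiment alone called 1 (XTH18), and the share of all genes called by that fit is not given here.

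With the replicate block, 3 members were called for XVE>>AXR3-1 against Col-0 (XTH4, XTH12 and XTH14) and 1 for the difference between the lines (XTH4); the block changed no other call of a member. In the heat experiment, where the numbers do not pair all of the libraries, it gave 86 called genes, against 5 without it. It was not run across experiments. With TPM in place of CPM, the highest and lowest groups of all 10 genes were unchanged, while 5 of 7 places held for XTH4, XTH19 and XTH22 and 4 of 7 for XTH17. Depth limits XTH12, XTH13 and XTH20, whose lowest libraries held 14, 6 and 5 estimated reads.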
